A study of Homo sapiens with 16 samples.

Results

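The cells described here were chosen by a gate of 7 genes (AMHR2, STAR, LHX9, GATA4, NPY, SPRR2F and HOPX) in single-cell RNA of human kidney organoids. A cell was a member when it had over 500 detected genes and at least 1 UMI (unique molecular identifier, 1 captured RNA molecule) in 3 or more of the 7. The rule was met by 1493 of 35066 cells (4.26%, 95% exact binomial interval 4.05 to 4.47%). The working name for such cells is gonadal or coelomic epithelium-like. Because that name came from the gate genes themselves, it was compared below with genes outside the gate.

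The organoids were grown from UM77-2, a human embryonic stem cell line, and whole wells were taken on day 24 after 24 h with vehicle (VC) or with TNFα at 5 ng/ml (TNF). Each condition had 1 single-cell library, so differences between VC and TNF had no replicate check and no test was run on them. Bulk RNA came from organoid spheroids of the same line, picked away from the rest of the well, in 13 libraries. Set 1 had 1 library for day 21, 1 for day 25 and 1 for day 29, set 2 had 2 for each day, and a set with TNFα had 1 VC and 1 TNF library at 24 h and at 48 h. The VC single-cell library held 100623461 UMIs in 11906 cells and the TNF library 91152175 UMIs in 23160 cells. Cells of the TNF library were therefore shallower, with a median of 2581 UMIs outside the gate against 6302 in VC.

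In the embryo the coelomic epithelium is the sheet that lines the body cavity. Where it thickens beside the mesonephros it forms the gonadal ridge, under transcription factors such as WT1, NR5A1, GATA4, LHX9 and EMX2, and elsewhere it gives rise to mesothelium. Kidney, gonad and this epithelium all come from intermediate mesoderm and its neighbours, and WT1, EMX2 and TCF21 are used in more than 1 of them.

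Each gate gene has a known role. AMHR2 is the receptor of anti-Müllerian hormone, STAR carries cholesterol into mitochondria for steroid synthesis, LHX9 and GATA4 are transcription factors of the gonadal ridge, and HOPX is a homeodomain protein that does not bind DNA. NPY encodes neuropeptide Y, a peptide best known from neurons. SPRR2F belongs to the small proline-rich proteins of squamous epithelium. AMHR2 lies on chromosome 12, STAR and GATA4 on 8, LHX9 and SPRR2F on 1, NPY on 7 and HOPX on 4, so the gate does not follow a single locus.

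Because the gate asks for these genes in the same cells, the 250 bases before the transcription starts of 3 of them are shown, as RefSeq gives them on GRCh38.p14. NPY and SPRR2F had the most UMIs of the gate in members, and AMHR2 is the receptor in the gate. AMHR2 is at chr12:53423605-53423854 on the plus strand, NPY at chr7:24283940-24284189 on the plus strand and SPRR2F at chr1:153113517-153113766 on the minus strand. Each is written 5′ to 3′ on the strand of its gene, and capitals mark matches, on either strand, to GATAA (the core read by GATA factors) or AGGTCA (the core read by nuclear receptors such as NR5A1), motifs that do not overlap each other here.
AMHR2: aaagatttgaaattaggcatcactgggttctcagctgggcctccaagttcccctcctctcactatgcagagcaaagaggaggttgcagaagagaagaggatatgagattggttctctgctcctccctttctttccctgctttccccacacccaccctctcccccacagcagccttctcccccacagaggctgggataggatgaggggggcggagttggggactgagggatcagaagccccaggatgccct
NPY: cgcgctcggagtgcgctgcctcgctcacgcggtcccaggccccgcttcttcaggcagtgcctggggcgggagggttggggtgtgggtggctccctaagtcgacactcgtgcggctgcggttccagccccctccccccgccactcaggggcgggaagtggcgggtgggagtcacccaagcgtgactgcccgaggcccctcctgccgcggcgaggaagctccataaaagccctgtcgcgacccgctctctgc
SPRR2F: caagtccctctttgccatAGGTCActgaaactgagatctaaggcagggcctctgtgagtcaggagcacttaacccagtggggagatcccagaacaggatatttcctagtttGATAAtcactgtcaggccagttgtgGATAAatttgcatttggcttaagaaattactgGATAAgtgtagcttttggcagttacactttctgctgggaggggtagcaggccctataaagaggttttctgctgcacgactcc
The SPRR2F window held 3 GATAA matches and 1 AGGTCA match, and the AMHR2 and NPY windows held none. Of 35116 starts in RefSeq, 20.4% had at least 1 GATAA match, 0.675% had 3 or more, and 12.1% had AGGTCA. RefSeq gave 7 starts for 5 of the 7 gate genes, of which 1 had GATAA and 2 had AGGTCA. Most of the gate's starts thus lacked these letters in this window, and a match is a description of the sequence only.

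Members were far more frequent in VC than in TNF, as the gate counted them. In VC, 1037 of 11906 cells passed (8.71%, 8.21 to 9.23%), and in TNF 456 of 23160 (1.97%, 1.79 to 2.16%). A gate on detected genes depends on depth, and the median member had 6906 UMIs in VC and 4812.5 in TNF. With every cell thinned to 1500 UMIs, which left out 953 VC cells and no TNF cell, 477 of 10953 cells passed in VC (4.35%, 3.98 to 4.75%) and 162 of 23160 in TNF (0.699%, 0.596 to 0.815%). The intervals cover counting error only. The share was the lower in TNF at equal depth too, but with 1 library a condition the treatment and the well cannot be told apart. The libraries also differed in the cells kept, 11906 of 12494 barcodes in VC and all 23160 in TNF. The part of this in the shares was not tested. Members took 84.1% of all gate UMIs in VC and 51.9% in TNF, and the gate genes summed to 361 CPM (the usual scaling of a gene's UMIs to all UMIs counted) over the whole VC library and 169 CPM over the TNF library. Of the barcodes, 74 were kept in both libraries, and 1 of them was a member in both.

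The number of gate genes per cell showed where the rule divides the cells. In VC, 442 cells had 2 gate genes, just outside the gate, and 235 had 3, just inside, while 802 had 4 or more and 96 had all 7. In TNF, 842 cells had 2 and 243 had 3, against 213 with 4 or more and 17 with all 7. So 243 of the 456 TNF members stood at the lowest number that passes. The most frequent combination was all 7 genes in VC (96 cells) and LHX9, NPY and SPRR2F in TNF (65 cells).

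A nearest-neighbour graph built without the gate genes showed how alike the members were in the rest of their RNA. A member was counted as near other members when 10 or more of its 20 nearest cells were members. This held for 774 VC members (74.6%) and for 166 TNF members (36.4%), while 76 VC and 37 TNF cells outside the gate stood in the same neighbourhoods. Among VC cells with 2 gate genes 11.5% were near members, with 3 it was 45.1% and with 7 it was 93.8%. In TNF the shares were 2.85%, 15.6% and 88.2%. Members near each other made up 6.50% of VC cells and 0.717% of TNF cells. By this count the gate held a core of like cells in both libraries, and in TNF most members lay outside that core. The count also depends on how common members are (8.71% of VC and 1.97% of TNF cells) and on depth. The difference between the libraries therefore cannot be read as a difference in likeness.

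**Figure D1:**
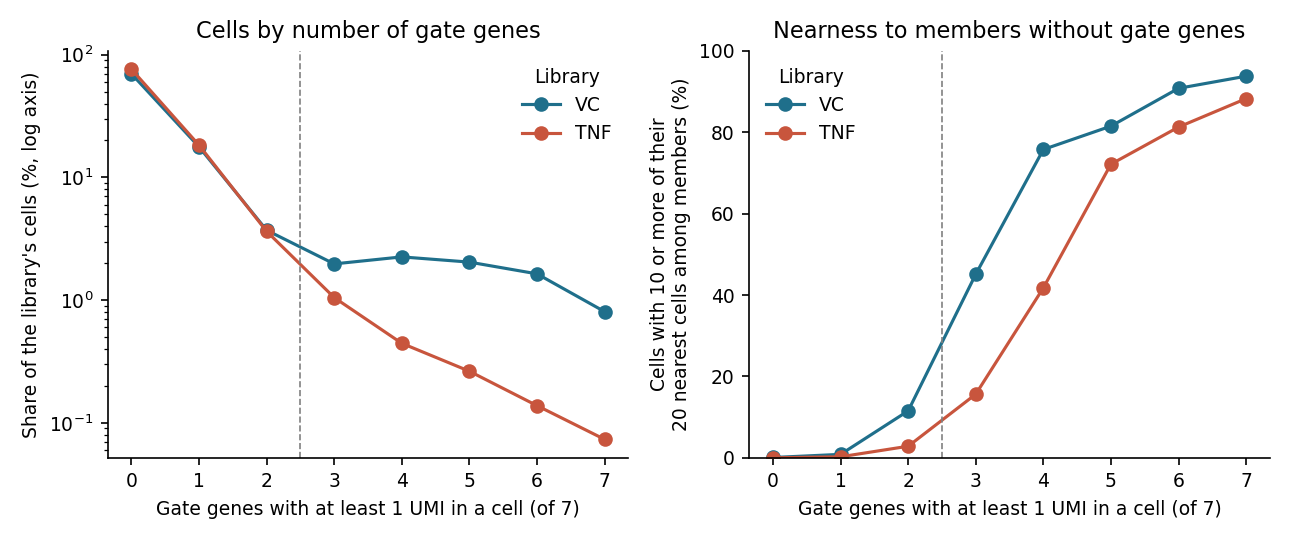
Left, the share of each library's cells (%, log axis) by the number of gate genes with at least 1 UMI; right, the share of those cells with 10 or more of their 20 nearest cells among members (%), with the gate to the right of the dashed line. The VC share near members goes from 11.5% at 2 gate genes to 93.8% at 7, and the TNF share from 2.85% to 88.2%.

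Clusters were also built without the gate genes. In VC, at the coarsest resolution tried (0.25), 742 members fell in a cluster of 808 cells, of which they made up 91.8%. The 66 other cells of that cluster had a median of 2264 UMIs, and 47 of them had 2 gate genes. In TNF the members had no cluster of their own at that resolution. At a resolution of 1.0, 129 TNF members made up 84.3% of a cluster of 153 cells, 28.3% of the TNF members. These shares describe the members and are not a test, since the members were selected on measured genes.

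The gate genes chose the cells, so their levels are given as a description. NPY was at 1341 CPM in VC members and 15.3 in the other VC cells, and at 1134 CPM in TNF members and 29.0 in the other TNF cells. SPRR2F was at 1067 CPM against 10.5 in VC and 829 against 18.0 in TNF. NPY was seen in 97.9% and SPRR2F in 90.4% of VC members, and in 91.9% and 84.0% of TNF members. NPY was seen in 5.35% of VC cells and 6.57% of TNF cells of a podocyte reference class, cells with 5 or more podocyte genes that should lack it, with median depths of 6116 and 3618 UMIs. It was seen in 5.73% and 9.79% of a stromal reference class, in 4.24% and 4.81% of a neuronal one, and in 5.70% and 8.32% of all other cells. Members were left out of all of these classes. The gate, which includes NPY, thus held these shares down, and they are a description only.

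AMHR2 was at 109 CPM in VC members and 98.7 CPM in TNF members, against 2.06 and 3.19 CPM in the other cells. STAR was at 124 and 150 CPM against 6.11 and 8.36 CPM. GATA4, at 62.1 and 51.0 CPM against 0.673 and 1.40 CPM, was seen in 39.8% of VC members, the smallest share of the 7. HOPX was at 111 and 81.8 CPM against 5.80 and 9.01 CPM. LHX9 also had a second source in the organoids. It was at 241 and 197 CPM in members and at 133 and 90.5 CPM in a neuronal reference class defined by 5 or more neuronal genes. In that class LHX9 was seen in 30.6% of VC cells, against 72.1% of VC members. Levels of the 7 genes in members of the 2 libraries differed by ratios between 0.737 and 1.21, TNF over VC.

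SPRR2F belongs to a family of near-identical genes, so its reads were checked. None of 585 windows of 91 bases in SPRR2F transcripts occurred in SPRR2A, SPRR2B, SPRR2D, SPRR2E or SPRR2G. Its relative SPRR2E was at 22.4 CPM in VC members against 0.232 in other cells, and at 17.5 against 0.386 CPM in TNF. For SPRR2E 12.6% of windows are shared with SPRR2A and with SPRR2B, so its counts are less certain.

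Genes outside the gate were compared between members and all other cells of the same library, as log2 of (CPM + 5) over (CPM + 5). A gene was called where the log2 ratio was at least 1, up or down, in both libraries. The log2(CPM + 5) scale understates the change of low genes, and no p-value was given because cells are not replicates. Of 13118 genes with enough counts in both libraries, 78 were higher in members (0.595%) and 149 were lower (1.14%). The same shares for calls in 1 library alone are not given here. With entry set by the rate of the other cells alone, a rule chosen after seeing the data, 73 of 13093 were higher and 149 lower. The median over all genes of a library was -0.09 in VC and -0.13 in TNF.

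Of the transcription factors on the gonadal ridge list, EMX2 and GATA6 were among the higher genes. NR5A1 did not enter in both libraries and is not among the called genes, so its values are a description. NR5A1, the nuclear receptor needed to form the gonad and adrenal gland, was at 14.01 CPM in VC members (140 UMIs, 95% exact Poisson interval 11.8 to 16.5 CPM) and 0.276 CPM in other VC cells. In TNF it was at 11.1 CPM (35 UMIs, 7.76 to 15.5 CPM) against 0.205. This was a ratio of 50.8 in VC (33.0 to 81.2) and 54.5 in TNF (30.04 to 102). NR5A1 was seen in 12.2% of VC members and 0.230% of other VC cells. EMX2, a homeobox factor of the urogenital system, was at 259 against 105 CPM in VC and 194 against 86.3 CPM in TNF. GATA6, the close relative of GATA4, was at 46.4 against 12.7 CPM and 40.4 against 16.5 CPM.

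Of the 14 genes on the gonadal ridge list, 9 had enough counts in both libraries. Of these, 2 were called higher in both (EMX2 and GATA6) and 1 lower. In VC alone all 14 entered, but NR5A1 did so only through its level in members (2.76 UMIs were expected at the rate of the other cells), so it is given above by its values and left out of the count. Of the remaining 13, 3 were higher (EMX2, GATA6 and ZFPM2) and 1 was lower. These counts are for VC alone, where the share of all genes called is not given here. WT1, shared with podocytes, was at 222 against 131 CPM and at 179 against 132 CPM, which did not reach the call. TCF21 was at 138 against 221 CPM and 119 against 177 CPM. The list median was 0.31 in VC with NR5A1 and -0.05 without it, so its sign rested on that gene, and 0.42 in TNF.

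Coelomic and mesothelial genes were higher in VC members. BNC1, a zinc-finger protein of mesothelium and germ cells, was at 41.1 CPM (37.3 to 45.3) against 1.05 CPM in VC and 20.4 CPM (15.7 to 26.0) against 2.18 in TNF. UPK3B, a uroplakin of mesothelial cells, was at 27.9 CPM (24.7 to 31.4) against 0.508 in VC and 8.598 CPM (5.67 to 12.5) against 0.227 in TNF. LRRN4, another mesothelial membrane protein, was at 14.9 against 1.32 CPM and 12.7 against 1.51 CPM. These 3 genes were named for being high in members, so their levels are a description.

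Of the 14 coelomic and mesothelial genes, 8 entered in VC. UPK3B did so only through its level in members (5.07 UMIs were expected at the rate of the other cells). Of the remaining 7, 6 were higher: LRRN4, BNC1, the keratins KRT8, KRT18 and KRT19, and ALDH1A2, which makes retinoic acid. That count is for VC alone and has no like share of all genes beside it. In TNF 4 entered, none was called, and the median was 0.85, against 1.26 in VC without UPK3B and 1.34 with it. So the list had 0 calls in both libraries of the 4 that entered both. KRT18 was at 453 against 166 CPM in VC and 389 against 217 CPM in TNF, and KRT19 at 362 against 162 and 264 against 181 CPM. Other mesothelial markers were low. MSLN, the surface protein mesothelin, was at 7.71 against 3.30 CPM in VC and 3.50 against 3.08 CPM in TNF. CALB2 had 2 UMIs in VC members and none in TNF members, which allows up to 0.955 CPM by a limit of 3 UMIs, and UPK1B had 1 UMI in each.

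Markers of the mature gonad were not raised together. Of 15 genes of the supporting lineage (Sertoli and granulosa cells), 8 entered in both libraries and 1 was higher, the ligand WNT6, at 24.8 against 3.19 CPM in VC and 23.2 against 4.33 in TNF. KITLG, the germ cell survival factor, passed in VC only, at 23.6 against 5.02 CPM, and was at 9.87 against 3.57 CPM in TNF. AMH, the hormone that AMHR2 binds, was at 3.40 against 3.61 CPM in VC and 4.46 against 3.06 CPM in TNF. FOXL2, FSHR and CYP19A1, which mark granulosa cells, had no UMI in any member, which allows up to 0.300 CPM in VC and 0.955 CPM in TNF by the same limit of 3 UMIs (0.369 and 1.17 CPM as the upper end of the two-sided exact interval).

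STAR carries cholesterol into mitochondria for steroid synthesis. Of 15 genes of that pathway, 6 entered in both libraries and 1 was higher, FDXR, the ferredoxin reductase of mitochondria, at 130 against 20.9 CPM in VC and 65.3 against 25.4 in TNF. CYP11A1, which starts steroid synthesis from cholesterol, was at 4.50 CPM (3.29 to 6.03) against 2.54 in VC and 7.01 CPM (4.39 to 10.6) against 3.25 in TNF. Both intervals lay above the level of the other cells, but they cover counting error only and are not a test. CYP11A1 was low and was not called. HSD3B2 had 2 UMIs in VC members and none in TNF members. CYP17A1 was at 1.10 CPM in VC members and had none in TNF members. The mitochondrial partner FDX1 was at 58.1 against 56.8 CPM and 58.9 against 60.6 CPM.

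Of 14 genes of AMH and BMP signalling, which AMHR2 enters, 13 entered in both libraries and none was called. Its targets ID1 and ID3 were lower in VC, ID1 at 241 against 533 CPM and ID3 at 612 against 1239 CPM. In TNF they were at 161 against 320 and 602 against 992 CPM, which did not reach the call. There 1 other gene of the list was called lower. Of 12 reproductive duct genes 7 entered and 3 were lower, the kidney and duct factors PAX2, PAX8 and LHX1.

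Cell types that could share the gate genes were looked at in the same way. For heart and epicardium, 4 of 11 genes entered in both libraries. HAND2 was at 16.5 against 2.31 CPM in VC and 14.01 against 3.12 in TNF, where it entered only through its level in members (9.81 UMIs expected at the rate of the other cells). Of the other 3 genes none was higher in both and ISL1 was lower. MYL7, an atrial myosin light chain, was at 11.1 against 1.02 CPM and 20.7 against 1.49 CPM. Of 7 endothelial and immune genes 2 entered in both, CLDN5 lower and KDR, a receptor of VEGF, higher, at 42.3 against 4.99 CPM and 13.7 against 3.69 CPM, while the endothelial genes CDH5 and PECAM1 had no more than 2 UMIs in members of either library. Sympathetic and endocrine genes, which go with NPY in nerve and adrenal medulla, had 0 higher of 4 that entered both. The squamous list of SPRR2F relatives and keratinisation genes had none that entered both.

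Some of the listed kidney genes were lower in members, and others did not reach the call. Of the 9 podocyte genes 4 were lower in both libraries and none higher, with list medians of -0.91 in VC and -1.42 in TNF. NPHS1, the slit diaphragm protein nephrin, was at 26.5 against 68.0 CPM in VC and 16.2 against 68.6 CPM in TNF. Of 8 genes of early nephron and tubule 6 were lower, and of 7 proximal tubule genes that entered 4 were lower. Stromal genes gave 0 calls of 8 in both libraries, with medians of -0.01 and -0.02. Of the neuronal genes, 4 of 8 were lower in both. All 8 genes of the proliferation list were above 0 on the log2 scale in both libraries without reaching the call, with medians of 0.48 and 0.33.

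The genes outside the lists with the highest ratios in both libraries were of mixed function. SLCO3A1, an organic anion transporter, was at 123 against 10.4 CPM in VC and 123 against 9.12 CPM in TNF. PLP2, a membrane protein, was at 340 against 20.5 and 210 against 22.1 CPM. KCNMA1, the large-conductance potassium channel, was at 101 against 7.12 and 76.7 against 7.34 CPM. Among the 15 named by the same rule were also MBNL3 (splicing), RNASE1 (a secreted ribonuclease), MYRF (a membrane-bound transcription factor) and LEF1 (a WNT effector). RNASE1 was at 89.5 against 5.87 CPM in VC and 36.3 against 3.07 CPM in TNF. Of the 15, RNASE1 and AL354863.1 entered only through their level in members. MYRF was at 98.0 against 8.72 and 68.5 against 12.8 CPM, and LEF1 at 55.2 against 11.5 and 44.6 against 9.39 CPM. The 10 lowest, list genes included, were taken from the 55 of 149 lower genes with at least 50 CPM in the other cells of each library. Among them were the podocyte gene PTPRO, the tight junction genes CLDN3 and CLDN5, and the neuronal genes NEFL, NEFM and STMN2. That filter picks genes abundant in the other cells.

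**Figure D2:**
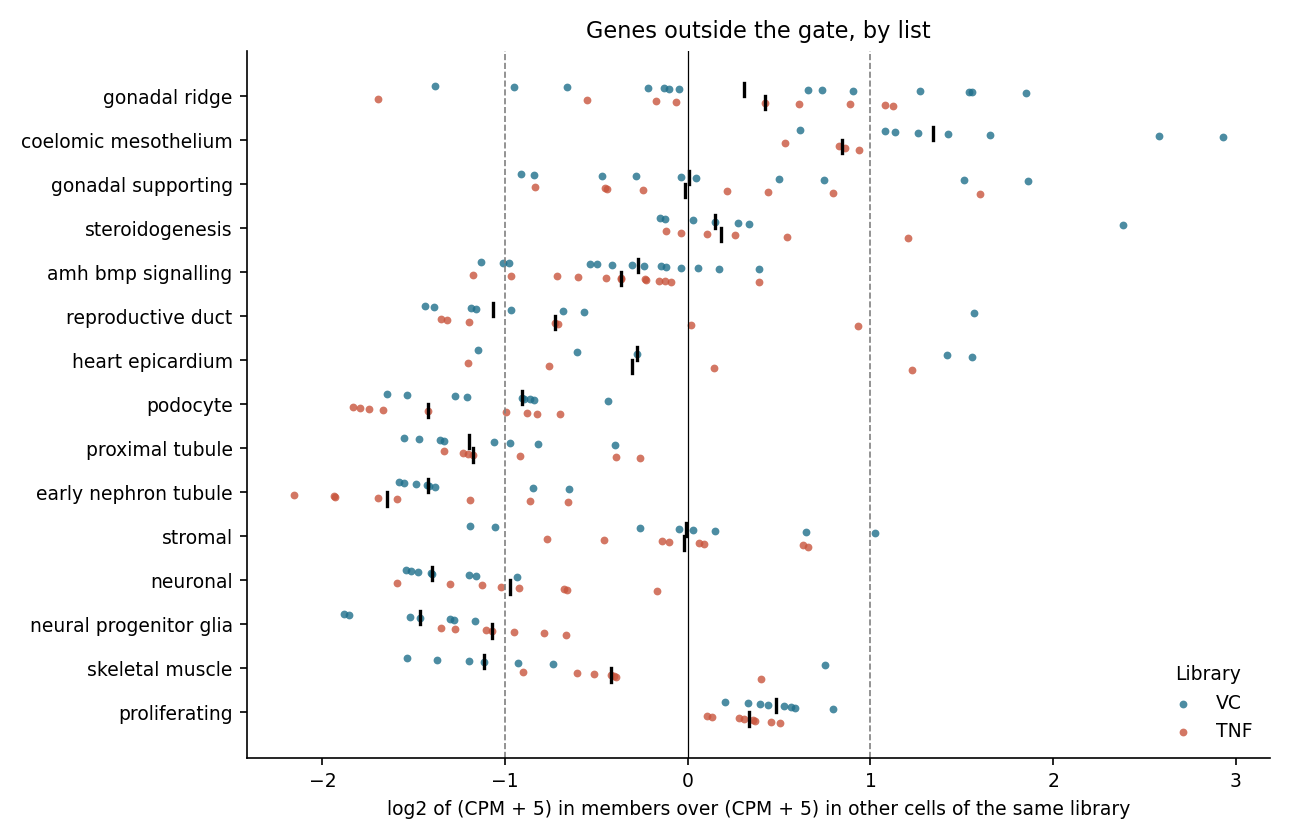
Each point is 1 gene outside the gate, placed by its log2 ratio (CPM + 5) of members over other cells of the same library, for 15 lists; black bars are list medians and dashed lines the call at 1 and -1. The medians of coelomic and mesothelial genes lie right of 0 in both libraries (1.34 in VC, 1.26 without UPK3B, and 0.85 in TNF), while podocyte genes lie left of 0 (medians -0.91 and -1.42).

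Set against the name of the gate, EMX2 and GATA6 were higher in members of both libraries, and ZFPM2, BNC1 and LRRN4 were higher in VC. On the other side, 1 gonadal ridge gene was lower in both, TCF21 was below the other cells in both without reaching the call, and the coelomic and mesothelial list had 0 calls in TNF, where 4 of its 14 genes entered and BNC1, LRRN4 and UPK3B did not. Of the supporting lineage and steroid synthesis lists, WNT6 and FDXR were higher in both. Genes of other tissues were higher too, KDR in both libraries and HAND2 and MYL7 in VC. MSLN and CYP11A1 were under 10 CPM in both libraries and CALB2, UPK1B, FOXL2, FSHR, CYP19A1 and HSD3B2 had 0 to 2 UMIs. These markers did not settle the name, so the cells are called members throughout.

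HOX genes mark position along the body, and a minority were called lower in members than in the other cells as a whole. Of 39 HOX genes, 33 entered in VC, 9 were called lower, none higher, and 32 had a log2 ratio under 0, with a median of -0.69. Of all genes that entered in VC 66% were under 0. In TNF 29 entered, 2 were lower and 27 were under 0, with a median of -0.56, beside 68.8% of all genes under 0. The share of all genes called lower in a single library is not given here, so the calls were not set against it. HOXB9 was at 45.1 against 160 CPM in VC and 45.5 against 105 CPM in TNF. The gap depended on the class it was taken against. Members were below the neuronal class in 31 of 33 HOX genes in VC and 28 of 29 in TNF, below the stromal class in 30 and 25, and below the podocyte class in 20 and 19. No share of all genes below each class was set beside these counts, so they show nothing particular to HOX genes. HOXB9 was at 495 CPM in the neuronal class, 65.6 in the stromal and 36.5 in the podocyte class in VC, and at 406, 69.6 and 50.9 CPM in TNF. HOXD9 went the other way, at 100 against 65.6 CPM and 100 against 62.4 CPM, short of the call.

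Cells were next divided by how many gate genes they held. NR5A1, UPK3B, LRRN4 and BNC1 were picked because they were high in members, so their levels are a description. Together they were at 2.57 CPM in VC cells with no gate gene and at 14.9 CPM (11.2 to 19.3) in those with 2. They were at 58.5 CPM (48.1 to 70.4) with 3 and at 141 CPM (122 to 161) with 7. In TNF the same sum was 3.72 CPM with none, 11.8 with 2, 21.1 (13.8 to 30.9) with 3 and 88.9 (61.2 to 125) with 7. The whole coelomic and mesothelial list went from 543 CPM with none to 1090 with 3 and 1903 with 7 in VC, and from 635 to 875 and 1568 in TNF. The whole gonadal ridge list had no such steady course in VC, at 606 CPM with none, 724 with 3, 881 with 4 and 750 with 7. In TNF it was at 522, 521, 601 and 760 CPM.

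Podocyte and neuronal markers ran the opposite way between 3 and 7 gate genes. The 9 podocyte genes summed to 1027 CPM in VC members with 3 gate genes and to 318 with 7, and in TNF to 618 and 256 CPM. The 8 neuronal genes went from 770 to 385 CPM in VC and from 796 to 148 CPM in TNF. The stromal genes had no single course, at 1499 CPM with no gate gene, 2441 with 3 and 1363 with 7 in VC. In TNF they were at 1758, 2149 and 1099 CPM. Depth moved with this, from a median of 5955 UMIs at 3 gate genes to 13815 at 7 in VC, and from 3706 to 18855 in TNF.

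**Figure D3:**
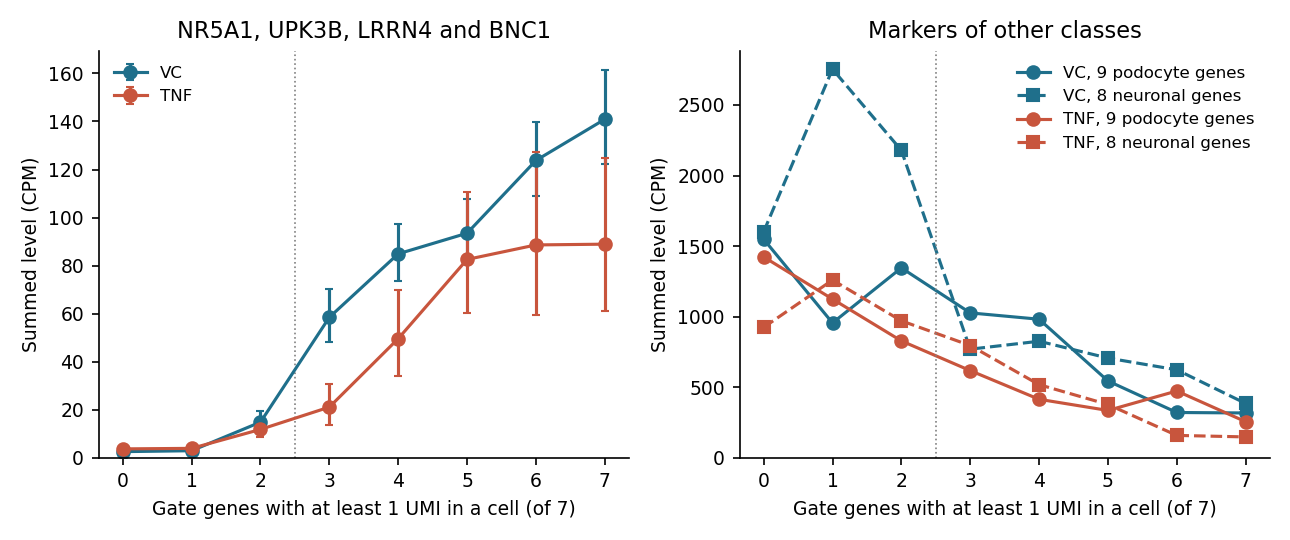
Summed levels (CPM) by the number of gate genes per cell: left, NR5A1, UPK3B, LRRN4 and BNC1 with exact 95% Poisson intervals; right, 9 podocyte genes (circles, solid) and 8 neuronal genes (squares, dashed). The left sum goes from 2.57 to 141 CPM in VC and from 3.72 to 88.9 CPM in TNF, while both sums at right are lower at 7 gate genes than at 3.

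Members far from other members had more RNA of other classes. STMN2, a neuronal gene, was at 39.7 CPM in VC members near members and at 412 CPM in the remaining VC members, and ACTC1, a muscle actin, was at 7.04 and 205 CPM. NPY was at 1811 CPM in the near members and 452 CPM in the rest, and BNC1 at 56.7 and 11.9 CPM. In TNF, NPY was at 1930 and 539 CPM, and BNC1 at 41.0 and 5.01 CPM. The neighbours were found from genes outside the gate, STMN2, ACTC1 and BNC1 among them, and NPY is a gate gene that chose the members, so these values are a description. With its counting interval, NPY in the near members was at 1811 CPM (1779 to 1844) in VC and 1930 CPM (1856 to 2006) in TNF. The near members were 6.50% of cells in VC and 0.717% in TNF. What sets the NPY level was not tested.

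In all, 227 VC members (21.9%) and 168 TNF members (36.8%) had 3 or more podocyte, neuronal or muscle genes besides the gate. Of the VC members 14.6% had a doublet score in the range set as doublets (9.29% of other cells), and of the TNF members 9.65% (18.2% of other cells). Free RNA, doublets and cells with a mixed state were not told apart, and their part in the gate was not tested. Mitochondrial genes took 2.13% of UMIs in VC members and 2.14% in TNF members, against 2.20% and 2.85% in the others.

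TNF members were next compared with VC members. Of 12864 genes with enough counts, 101 were higher in TNF members (0.785%) and 46 were lower (0.358%), by the same call. In the other cells 106 of 20888 genes were higher (0.507%) and 27 were lower (0.129%). With entry set by the rate in VC members alone, a rule chosen after seeing the data, 77 of 12745 were higher in TNF members and 46 lower. The comparison sets 456 cells of 1 library beside 1037 of another, and the gate let through a different mix of cells in each, as the values above show.

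NF-κB targets, which TNFα switches on through its receptor TNFR1, were higher in TNF members. Of 25 such genes 16 entered and 14 of them were higher, with a median of 1.72 against -0.07 for all genes. By the rate in VC members alone 13 entered and 11 were higher. In the other cells 16 of 24 were higher. The list summed to 287 CPM in VC members and 2183 CPM in TNF members, and to 275 and 3090 CPM in the other cells. TNFRSF1A, which encodes the receptor, was at 41.9 CPM in VC members and 40.1 CPM in TNF members.

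CCL2, a monocyte chemokine, was at 35.5 CPM in VC members (31.9 to 39.4) and 785 in TNF members (754 to 817). IL32, a cytokine, was at 16.4 and 415 CPM, and VCAM1, a leukocyte adhesion protein, at 9.61 and 150 CPM. NFKBIA, the NF-κB inhibitor that NF-κB itself induces, was at 110 and 406 CPM, a ratio of 3.69 (3.40 to 4.002). Of the 15 genes with the highest ratios, 8 entered only through their level in TNF members, among them CXCL10, ICAM1 and FDCSP, a secreted peptide. FDCSP had 3 UMIs in VC members (0.300 CPM, 0.943 UMIs expected in TNF members at that rate) and was at 148 CPM in TNF members, a ratio of 494 with an interval from 168 to 2405. In TNF members near members it was at 14.2 CPM. The stromal reference class held FDCSP at 567 CPM in TNF, the other cells as a whole at 241 CPM.

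Within TNF the CCL2 level had no steady course over cells outside the gate, at 1215 CPM with no gate gene, 1397 CPM with 1 and 1224 CPM with 2. In TNF members it was at 1013 CPM with 3 gate genes, 830 with 4, 615 with 5, 464 with 6 and 480 with 7. In members near members CCL2 was at 22.7 CPM in VC and 330 CPM in TNF, IL32 at 9.49 and 251 CPM, and NFKBIA at 120 and 403 CPM. So the members most like each other also had these genes higher in TNF, with 8 of 11 list genes called. Of all 10074 genes compared in those members, 55 were higher. Entry there used the rate over both libraries together, so a gene could enter through its level in TNF.

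Genes lower in TNF members included several that were higher in members than in other cells of VC. WNT2B, a WNT ligand, was at 88.4 CPM in VC members and 25.8 in TNF members, against 6.75 and 4.53 CPM in the other cells. PROCR, the protein C receptor, was at 24.3 and 5.10 CPM. TEKT3, a tektin of cilia and flagella, was at 21.5 and 1.91 CPM. GSTA1, a glutathione transferase, was at 38.0 CPM (34.3 to 42.1) and 5.41 CPM (3.15 to 8.67). In the members near members WNT2B was at 119 and 49.2 CPM and PROCR at 34.5 and 5.96 CPM. GSTA1 was there at 46.1 CPM in VC and had 1 UMI in TNF, a ratio of 0.0162 with an interval from 0.000408 to 0.0907. GSTA1 shares much of its sequence with other GSTA genes, so its counts may include theirs.

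Among the identity genes, UPK3B was called lower in TNF members, with a ratio of 0.308, and SOX9 higher, at 5.81 CPM in VC members and 25.5 CPM in TNF members. Neither call held among members near members, where the log2 ratio was -0.99 for UPK3B (ratio 0.439) and 0.88 for SOX9 (ratio 2.76). Of the gonadal ridge list 0 of 12 were called, with a median of -0.22. The proliferation list had a median of -0.61 in members and -0.42 in the other cells, with no call among its 8 genes in either. Markers of other classes moved as well. Of the 8 skeletal muscle genes 6 entered and 3 were higher in TNF members, the muscle regulators MYOD1 (4.30 and 13.7 CPM) and MYOG (17.8 and 40.8 CPM) and the actin ACTC1 (75.6 and 158 CPM), with a median of 0.90 and 0 calls in the other cells. The list summed to 205 and 351 CPM in members and to 94.6 and 127 CPM in members near members. Among members near members 2 of the genes entered and 1 was higher, and ACTC1 was at 7.04 and 25.3 CPM. The neuronal gene STMN2 was lower, at 169 and 74.8 CPM, as were MAL, at 29.6 and 9.87 CPM, and KDR, at 42.3 and 13.7 CPM. In the other cells STMN2 was at 491 and 235 CPM, and 3 of 8 neuronal genes were called lower, against 1 in members. No gene of the lists that hold MAL and KDR was called lower in the other cells. Of the 9 podocyte genes 1 was lower in members, 1 in members near members and 0 in the other cells. They summed to 664 and 468 CPM in members. The part of other cell classes in these results was not tested. Whether members and other cells respond differently was not tested, as each condition had 1 library.

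**Figure D4:**
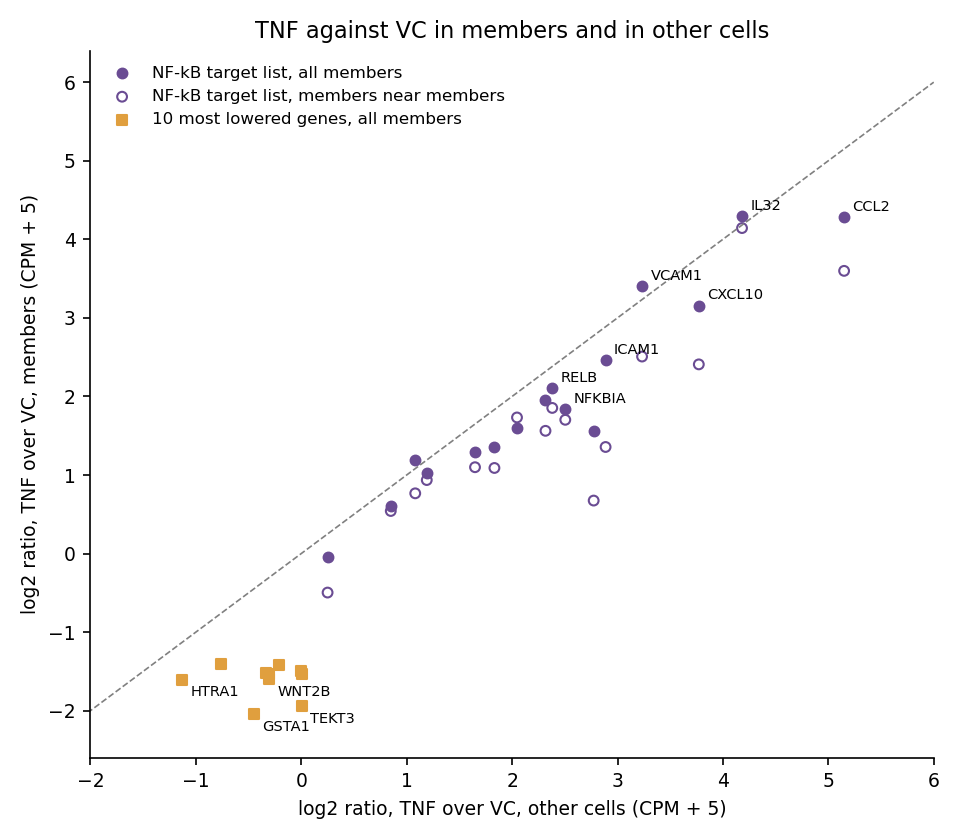
Log2 ratio (CPM + 5) of TNF over VC in members (vertical) against that in other cells (horizontal), for NF-κB targets that entered (filled circles, all members; open circles, members near members) and the 10 most lowered genes (squares); the dashed line is equality. All NF-κB targets but 1 lie above 0 on both axes, and the squares lie below the line.

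In bulk RNA of spheroids, the gate genes were read as deposited log2 values. Set 2 had 2 libraries a day, and limma was fitted over all 27650 genes. Between day 21 and day 29, 2778 genes rose (10.0%) and 2303 fell (8.33%) at an adjusted p under 0.05, with a median difference of -0.02. Centring each library on its median turned this split to 2408 higher and 4667 lower and the median to -0.12. Of the 7 gate genes, 2 rose, LHX9 and HOPX, and none fell, with or without the centring.

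LHX9 was at 2.12 and 2.06 on day 21, 4.12 and 4.12 on day 25, and 4.48 and 5.48 on day 29, on the deposited log2 scale. Its difference between day 29 and day 21 was 2.89 (SE 0.27, limma adjusted p = 0.000409, n = 2 and 2). HOPX was at 0.38 and 0.03, then 1.38 and 1.40, then 2.04 and 2.36, a difference of 2.00 (SE 0.18, limma adjusted p = 0.000314). For both genes, day 21 libraries lay below all later ones. In the single cells LHX9 was also seen in the neuronal class. HOPX was at 14.7 CPM in the VC stromal class against 5.80 CPM in the other VC cells. In these bulk libraries 7 of 8 neuronal genes and 7 of 8 stromal genes rose, beside 10.0% of all genes. The cells behind the rise of LHX9 and HOPX were not tested.

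The other gate genes did not pass. AMHR2 was at 1.71 and 1.59 on day 21, 2.38 and 1.82 on day 25, and 1.91 and 2.36 on day 29, a difference of 0.48 (limma adjusted p = 0.208). NPY was at 0.33 and 0.57, then 1.19 and 0.64, then 0.24 and 0.26, a difference of -0.20 (limma adjusted p = 0.505). SPRR2F was between 0.08 and 0.58 in all 6 libraries. STAR was between 1.98 and 2.37 in the 6 libraries, and GATA4 between 0.35 and 1.57. The highest AMHR2, STAR, GATA4, NPY and SPRR2F values of the set were all in replicate 1 of day 25 (2.38, 2.37, 1.57, 1.19 and 0.58), whose partner was at 1.82, 2.29, 0.72, 0.64 and 0.15. In bulk RNA, fewer cells of a type and less RNA per cell cannot be told apart. Whether these values come from cells like the members was not tested.

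The gonadal ridge and the coelomic and mesothelial lists, most of whose genes were not called in members of both libraries, went in both directions in set 2. Of the 14 gonadal ridge genes 3 rose and 5 fell, and of 13 coelomic and mesothelial genes 2 rose and 4 fell, against a median of -0.02 over all genes. ZFPM2 rose by 2.94 and GATA6 by 1.83 on the log2 scale. BNC1 fell by 1.95 and LRRN4 fell by 2.09. These are genes of several organoid cell types, and 7 of 8 stromal genes rose as well, beside 10.0% of all genes. The cells behind these changes were not tested.

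**Figure D5:**
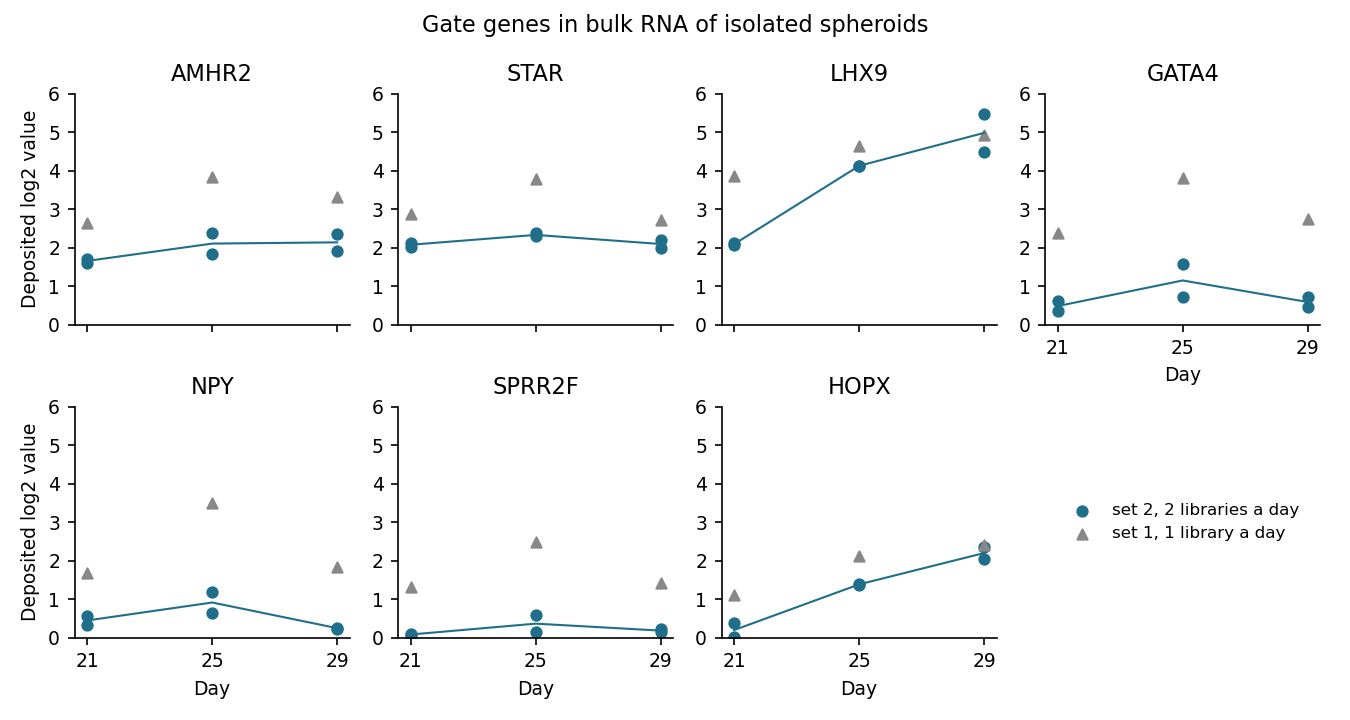
Deposited log2 value of each gate gene by day of culture in bulk RNA of spheroids, with each library as a point (circles, set 2 with 2 libraries a day and a line through their means; triangles, set 1 with 1 library a day). The sets were normalized separately, so only changes within a set may be read; in set 2 LHX9 goes from 2.12 and 2.06 to 4.48 and 5.48.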

How the data were processed

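The members, gene lists and calls were chosen with earlier results of these data known. The single-cell counts are UMI counts that the authors deposited as filtered matrices, without normalization. The file header names Cell Ranger 6.0.1 and the submitters' processing notes name 2.1.1, with builds hg19 and hg38, so the build behind these counts was not settled. Gene positions were looked up by Ensembl ID in GENCODE 44 on GRCh38. For the bulk tables, the deposited log2 values were made by the authors with STAR 2.7.8a, HTSeq and voom. The values themselves read as log2(CPM + 1) with 0.5 added to counts, and 100% of values gave whole reads within 0.01, from 19063018 to 30265252 reads a library in set 2.

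Members were found with Python 3.11.15 in cells with over 500 genes. UMIs were summed per library over members and over others and divided by the class total (CPM), with exact 95% Poisson intervals for levels, a limit of 3 UMIs for a count of 0, exact conditional binomial intervals for ratios and Clopper-Pearson intervals for shares. A gene entered at 10 or more UMIs expected in members at the rate over both classes together, which lets in a gene through a high level in members alone, so counts were also taken at the rate of the comparison class. Named genes were the 15 highest and 10 lowest called genes of each comparison, besides list genes. Against other cells, the highest needed at least 50 UMIs in members of each library. The lowest needed at least 50 CPM in the other cells of each library. For TNF against VC, both needed at least 50 UMIs in members of the 2 libraries together. Neighbours came from 30 components per library without gate and mitochondrial genes (scanpy 1.11.5, leidenalg 0.10.2). Doublets were kept. Scrublet's automatic threshold marked 0 cells, so the highest scores at 0.8% per 1000 barcodes were marked instead. Bulk values were fitted with limma 3.58.1 under R 4.3.3 (eBayes with trend, Benjamini-Hochberg adjustment), with edgeR 4.0.16 and DESeq2 1.42.0 on recovered reads as alternatives. The authors describe the study's samples as coming from 2 or more independent experiments, each with biological replicates. The labels do not say whether the 2 libraries a day came from separate cultures, so p-values measure the spread between these libraries, which may be technical. On simulated data with 4-fold changes the cell comparison recovered 75.5% of 200 genes in VC and 84.5% in TNF, and limma recovered 91% of 4-fold and 48% of 2-fold changes. A day 25 control single-cell sample was not analysed here. Some genes are not reported here.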

Additional observations from a re-analysis of the deposited data

Results flagged for a closer look

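For 5 genes of the gonadal ridge list and the coelomic and mesothelial list, the ratio of TNF over VC lay on one side of 1 in members and on the other side in the other cells, with both 95% intervals clear of 1. How many of all genes met the same rule is not given here, so the 5 have no background beside them. Other genes of these lists had ratios on opposite sides with an interval that spanned 1. None of these differences was tested, since each condition had 1 library. The ratio in members was 0.703 for ZFPM2 (1.32 in other cells), 0.858 for KRT18 (1.31), 0.730 for KRT19 (1.12) and 0.495 for BNC1 (2.08). For IRX3 the order was the opposite, with 2.58 in members and 0.864 in other cells. Among the members near members the ratios were 0.888 for ZFPM2, 1.05 for KRT18, 0.913 for KRT19, 0.723 for BNC1 and 1.72 for IRX3. There the interval stayed on its side of 1 for BNC1 only (0.535 to 0.962), and spanned 1 for ZFPM2 (0.629 to 1.23), KRT18 (0.972 to 1.14), KRT19 (0.832 to 1.0005) and IRX3 (0.554 to 4.56). ZFPM2 is a cofactor of GATA factors, IRX3 is a homeobox factor of nephron segments and gonad, and KRT18, KRT19 and BNC1 belong to the coelomic and mesothelial list.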

How the results depend on the processing

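The share of members was higher in VC than in TNF under all 6 alternatives, but its size was not fixed. It was 12.4% and 5.6% with 2 gate genes, 6.74% and 0.920% with 4, 4.35% and 0.699% after thinning, and 6.94% and 1.25% without members that held genes of another class. Without the cells marked as doublets it was 2.17% in TNF. With members near members alone, an alternative chosen after seeing the data, it was 6.50% and 0.717%. The cause of these moves was not tested beyond their construction.

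Genes higher in members, 78 in the report, came to 36 with 2 gate genes, 16 after thinning (8 of them among the 78), 43 at 30 expected UMIs, 121 with a pseudocount of 1 CPM and 25 with 20 CPM. Genes lower in members, 149 in the report, came to 15 with 2 gate genes, 304 with 4, 430 without members of another class, 642 for members near members, and 434 and 32 with those pseudocounts. Genes higher in TNF members, 101 in the report, came to 55 after thinning (12 of them among the 101), 55 for members near members (42 among the 101), and 193 and 32 with the pseudocounts. Genes lower in TNF members, 46 in the report, came to 87 with 4 gate genes, 98 after thinning (11 of them among the 46), 74 for members near members (24 among the 46), and 241 and 6 with the pseudocounts. Thinning left 3915 genes to compare, so low genes such as NR5A1 rest on full depth. No named gene that was called changed its direction in any alternative.

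In bulk RNA 2 gate genes rose in the report and under each of the 13 alternatives, among them edgeR, DESeq2, the replicate block and leaving out each library in turn. Over all genes the calls went from 5081 to 6056 with the replicate block and to between 2358 and 5417 when 1 library was left out. They were lowest without either day 21 library (2535 and 2358) and came to 3334 without replicate 2 of day 29. Where a day kept 1 library, it was assumed to vary like the others. Same-numbered libraries deviated from their day means with correlations of 0.143, 0.0753 and 0.270 over 18572 genes, so the numbers were not taken as pairs.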

Other observations

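Genes of retinoic acid handling, which patterns the gonad and kidney, were not raised in members as a group. Of 12 listed genes 11 entered in both libraries, none was higher and ALDH1A1 was lower. Of 10 endoderm and liver genes 3 entered in both and 1 was lower, AFP. Of 9 germ cell and pluripotency genes none entered in both libraries. Of the NF-κB targets 18 entered in both libraries and 0 were called in both. The list median was -0.07 in VC, where the list summed to 287 CPM in members and 275 in the other cells. In TNF 1 of 20 was lower, the median was -0.37, and the sums were 2183 and 3090 CPM.

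The remaining bulk libraries have no replicates, and their tables were normalized separately. In set 1 the values on days 21, 25 and 29 were 2.63, 3.82 and 3.32 for AMHR2, 2.37, 3.80 and 2.75 for GATA4, and 1.68, 3.51 and 1.84 for NPY, on the deposited log2 scale. STAR was at 2.88, 3.77 and 2.73, SPRR2F at 1.33, 2.499 and 1.41, LHX9 at 3.85, 4.65 and 4.93 and HOPX at 1.12, 2.12 and 2.40. So 5 of the 7 gate genes had their highest value of set 1 in the day 25 library, and LHX9 and HOPX in the day 29 library.

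In the TNFα set, NPY was at 0.61 in VC and 0.37 in TNF at 24 h, and at 2.84 and 2.08 at 48 h. GATA4 was at 0.46 and 1.14 at 24 h, and at 2.91 and 2.22 at 48 h. AMHR2 was at 2.28 and 2.48, then 3.17 and 2.66. STAR was at 2.48 and 2.78, then 3.05 and 2.72. LHX9 was at 2.97 and 2.75, then 3.70 and 3.61, and HOPX at 1.37 and 1.96, then 1.85 and 1.76. SPRR2F was not listed in that table. The gap between the 24 h and 48 h libraries of NPY, GATA4 and LHX9 was thus wider than that between VC and TNF at either time. For AMHR2 and STAR this held in VC only, and for HOPX in neither condition.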
